A study of Homo sapiens with 120 samples.

Results

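The secreted growth factors and proteases described here, with 1 surface receptor, are 8 genes: PTHLH, NMU, AREG, EREG, PLAU, PLAUR, PRSS3 and MMP1. These are among 27118 gene names in the deposited expression table. The 8 names were chosen by an earlier reading of these same data, in which PTHLH had been noted for its difference between raft and C1 cells, and the values that brought in the other 7 are not recorded. The p-values below come from a fit over the whole table and are no independent support for the choice. Each name stood on 1 row. CFPAC-1 is an established human pancreatic ductal adenocarcinoma line, and every cell library was made from it with the SMARTer and Nextera XT kits. The isolation experiment, on untreated cells, held 4 bulk libraries, 10 rafts with 1 cell, 10 with 2 cells and 10 empty, and 5 captures each with 1 cell, 2 cells and no cell on the Fluidigm C1. A microraft is a small culture element that is lifted from an array with the cell growing on it, and the C1 is a microfluidic instrument that traps suspended cells. The gemcitabine experiment held 4 arms, left untreated, given saline, or given the nucleoside drug gemcitabine at 2 nM or 5 nM. Each arm had 8 rafts labelled proliferative and 8 labelled nonproliferative, with the number of cells per raft given as unknown. Another 7 libraries were made from water.

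The proteins act outside the cell that makes them or at its surface. Amphiregulin (AREG) and epiregulin (EREG) are ligands of the epidermal growth factor receptor EGFR and are released by sheddases such as ADAM17. Urokinase (PLAU) turns plasminogen into plasmin and is held at the cell surface by its receptor PLAUR. PTHLH encodes parathyroid hormone-related protein, which acts through PTH1R, and NMU encodes the neuropeptide neuromedin U, which acts through NMUR1 and NMUR2. PRSS3 encodes mesotrypsin, a trypsin that resists many trypsin inhibitors, and MMP1 encodes interstitial collagenase. Pancreatic carcinoma lines are known to make several of them.

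The RefSeq promoter table (build GRCh38.p14) matched 7 of the 8 genes, and the 250 bases before the start site were searched. Of those windows, 4 are printed because they hold a searched motif, which stands in capitals. EREG and AREG lie 79991 bases apart on chromosome 4, and both carry TATAAA, searched on the gene's strand, at -32 in EREG and -29 in AREG. AREG also holds the cyclic AMP response element TGACGTCA at -65. The AP-1 motif was searched as TGANTCA, with any middle base. PRSS3 holds TGAATCA at -173 and PLAUR holds TGAGTCA at -186 from the start site. The windows are chr4:74364895-74365144 (plus strand) for EREG, chr4:74444886-74445135 (plus strand) for AREG, chr9:33795311-33795560 (plus strand) for PRSS3 and chr19:43670170-43670419 (minus strand) for PLAUR, printed 5′ to 3′ along each gene.
EREG: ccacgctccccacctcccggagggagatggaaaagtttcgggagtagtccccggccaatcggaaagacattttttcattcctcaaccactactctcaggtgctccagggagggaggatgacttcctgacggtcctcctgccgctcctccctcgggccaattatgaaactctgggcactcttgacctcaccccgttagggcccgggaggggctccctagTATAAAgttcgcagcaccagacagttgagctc
AREG: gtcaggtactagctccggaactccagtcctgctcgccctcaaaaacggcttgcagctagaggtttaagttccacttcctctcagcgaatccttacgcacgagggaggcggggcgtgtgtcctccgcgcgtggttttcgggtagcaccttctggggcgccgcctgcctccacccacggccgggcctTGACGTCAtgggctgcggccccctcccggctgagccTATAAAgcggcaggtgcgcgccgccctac
PRSS3: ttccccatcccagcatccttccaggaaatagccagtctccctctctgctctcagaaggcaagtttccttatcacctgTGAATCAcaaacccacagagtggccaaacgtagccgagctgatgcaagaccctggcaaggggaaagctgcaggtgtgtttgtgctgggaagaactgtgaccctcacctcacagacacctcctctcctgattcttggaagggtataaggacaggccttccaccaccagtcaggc
PLAUR: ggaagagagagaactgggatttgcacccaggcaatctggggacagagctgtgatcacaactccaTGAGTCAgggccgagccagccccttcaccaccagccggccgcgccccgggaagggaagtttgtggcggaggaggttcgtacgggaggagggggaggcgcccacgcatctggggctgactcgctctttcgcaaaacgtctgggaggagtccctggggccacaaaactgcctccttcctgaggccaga
Of 35116 windows of the same length, 6.8% held TATAAA on the gene's strand. On either strand, 1.65% held TGACGTCA and 6.57% held TGANTCA, and no 2 of the matches above overlap. The PTHLH and NMU windows and both PLAU windows held none of the 3.

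Genes detected, meaning at 1 FPKM or more, numbered 4804 to 8461 in 1-cell rafts, 8560 to 10474 in 1-cell C1 captures and 8570 to 10581 in bulk, and 9 to 7953 in the empty captures. The table holds no counts. A rough relative depth, read from the spacing of low values against bulk replicate 1, had a median of 11.3 in 1-cell C1 captures, 1.66 in 1-cell rafts and 2.64 and 2.74 in proliferative and nonproliferative rafts. It could be read in only 20 of 32 proliferative and 16 of 32 nonproliferative rafts, those with enough genes and low values, so it does not compare the whole classes. Spearman rho with mean bulk, across 10767 genes, was 0.592 to 0.729 in 1-cell rafts, 0.457 to 0.538 in 1-cell C1 captures and at most 0.149 in the empty captures. Of the ductal epithelium markers 7 of 8 could be summed (KRT19 was not analysed here), and the sum was 1294 to 1835 FPKM in bulk, 1592 to 4732 in 1-cell rafts and 1901 to 6386 in 1-cell C1 captures, beside 0 to 183 in empty rafts, 0 to 546 in water and 25.2 to 9095 in empty C1 captures. Of 8 markers of other cell types, COL1A2, GCG and CPA1 were listed at 0 in all 34 bulk and cell libraries, COL1A1, PTPRC, PECAM1 and CELA3A reached at most 2.41, 8.98, 9.1 and 26.7 FPKM, and VIM, known in many cultured carcinoma lines, reached 1548. By their titles the arms are library sets of their own, and the 2 classes of an arm share a set. Treatment and library set therefore cannot be told apart. In the arms rho ran from -0.104 to 0.808, and saline nonproliferative replicate 3 and 5 nM nonproliferative replicate 7 had 10424 and 10198 genes detected at a rho of -0.104 and -0.02.

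By group median PLAU was the highest of the 8 in bulk and in captured cells on the FPKM scale, which is per transcript length, though PTHLH exceeded it in bulk replicate 2 (283 against 278 FPKM). Its median was 341 FPKM in bulk, 566 in 1-cell rafts, 1093 in 2-cell rafts, 530 in 1-cell C1 captures and 426 in 2-cell C1 captures. In bulk the order of medians after PLAU was PTHLH at 155, PRSS3 at 66.5, AREG at 52.4, EREG at 46.9, PLAUR at 39.6, NMU at 24.7 and MMP1 at 6.92 FPKM. PRSS3, AREG, EREG and PLAUR overlapped across the 4 bulk libraries, so their order there lies within the spread. All 8 genes were detected in each bulk library. A 1-cell raft held 3 to 7 of them, a 2-cell raft 6 to 8, a 1-cell C1 capture 4 to 6, an empty raft 0 or 1 and a water library 0 to 2.

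Both EGFR ligands were detected in nearly every capture with cells. EREG stood at 53.6, 58.1, 40.2 and 35.0 FPKM in the 4 bulk libraries and was detected in all 10 1-cell rafts, with a lowest, median and highest value of 1.92, 44.6 and 156 FPKM. The 5 C1 captures with 1 cell gave 23.1, 60.1, 30.3, 136 and 194 FPKM for EREG. The bulk, raft and C1 ranges of EREG thus overlapped. An empty raft held EREG at 312 FPKM, above every 1-cell raft. AREG stood at 97.3, 54.95, 49.9 and 44.8 FPKM in bulk and at 14.6, 1.59, 21.8, 130 and 73.9 FPKM in the 1-cell C1 captures. The values of 14.6 and 1.59 lay below the 17.3 FPKM of an empty C1 capture. In 1-cell rafts AREG ran from 0 to 449 FPKM with a median of 81.8, and it was listed at 0 in replicates 3 and 10. EGFR itself was low: its median was 5.46 FPKM in bulk and 0.095 in 1-cell rafts, where 4 of 10 libraries detected it, against 19.4 FPKM and 4 of 5 in 1-cell C1 captures. ADAM17 had a median of 3.32 FPKM in bulk, 7.16 in 1-cell rafts and 11.9 in 1-cell C1 captures.

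The urokinase pair was also detected in nearly every capture with cells. PLAU stood at 242, 278, 530 and 405 FPKM in bulk and between 27.8 and 1228 FPKM in 1-cell rafts. The 1-cell C1 captures gave 34.2, 368, 1606, 1157 and 530 FPKM for PLAU, a range as wide as that of the rafts. The lowest of these lay below the 56.04 FPKM of an empty C1 capture. PLAUR stood at 5.63, 33.8, 61.3 and 45.4 FPKM in bulk and at 38.1, 14.3, 793, 60.5 and 61.7 FPKM in those C1 captures. In 1-cell rafts PLAUR ran from 0, in replicate 10, to 241 FPKM with a median of 68.9. The highest PLAU and the highest PLAUR of the 1-cell C1 captures came from the same capture, replicate 3. PLAT, the tissue-type plasminogen activator, had a median of 74.6 FPKM in bulk, 4.01 in 1-cell rafts and 136 in 1-cell C1 captures.

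PTHLH, which had been noted earlier for this difference, was high in most 1-cell rafts and low or listed at 0 in C1 captures. It stood at 180, 283, 130 and 112 FPKM in bulk. In 1-cell rafts it ran from 0 to 1968 FPKM with a median of 280, and 9 of 10 rafts detected it. Among the 5 C1 captures with 1 cell it was listed at 0 in 4 and at 7.1 FPKM in 1. The rafts overlapped bulk and, through replicate 6 at 0, the C1 captures, whose highest value of 7.1 FPKM was below the lowest bulk value of 112 FPKM. The 2-cell C1 captures gave 0, 14.1, 62.1, 15.7 and 13.02 FPKM and the 2-cell rafts 264 to 1145 FPKM. How many of all genes have separate ranges in these comparisons was not counted. PTH1R, its receptor, was listed at 0 in all bulk, raft and C1 libraries and all 64 arm libraries.

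NMU was plain in bulk and rare in cells taken 1 at a time. It stood at 89.9, 18.7, 24.7 and 24.8 FPKM in bulk and was listed at 0 in all 10 1-cell rafts. In 2-cell rafts 8 of 10 libraries detected it, with a median of 7.44 and a highest value of 26.6 FPKM. Of the 10 C1 captures with cells only 1-cell replicate 2 had it, at 21.6 FPKM. NMUR1 reached at most 0.84 FPKM in any bulk or cell-containing capture, and NMUR2 reached 1.69 FPKM in bulk and 45.9 FPKM in a 2-cell C1 capture.

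The 2 proteases were patchy from cell to cell. PRSS3 stood at 10.4, 35.4, 97.5 and 106 FPKM in bulk, and its 2 higher values came from replicates 3 and 4. In 1-cell rafts 5 of 10 libraries detected PRSS3, at 51.3, 211, 76.6, 83.7 and 508 FPKM, and the other 5 stood at 0.45 or below. In 1-cell C1 captures it was 0, 99.2, 12.2, 0 and 74.8 FPKM. MMP1 stood at 16.9, 2.15, 7.34 and 6.5 FPKM in bulk, was detected in only 1 of the 1-cell rafts, replicate 5, at 45.5 FPKM, and had no value above 0 in the 10 C1 captures with cells. F2RL1, a receptor that trypsins can cleave, had a median of 37.0 FPKM in bulk, 31.7 in 1-cell rafts and 11.4 in 1-cell C1 captures. TIMP1, an inhibitor of MMP1, was abundant, with a median of 291 FPKM in bulk, 355 in 1-cell rafts and 372 in 1-cell C1 captures, while MMP14, a membrane-bound metalloprotease, was listed at 0 in bulk and in 1-cell rafts.

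**Figure D1:**
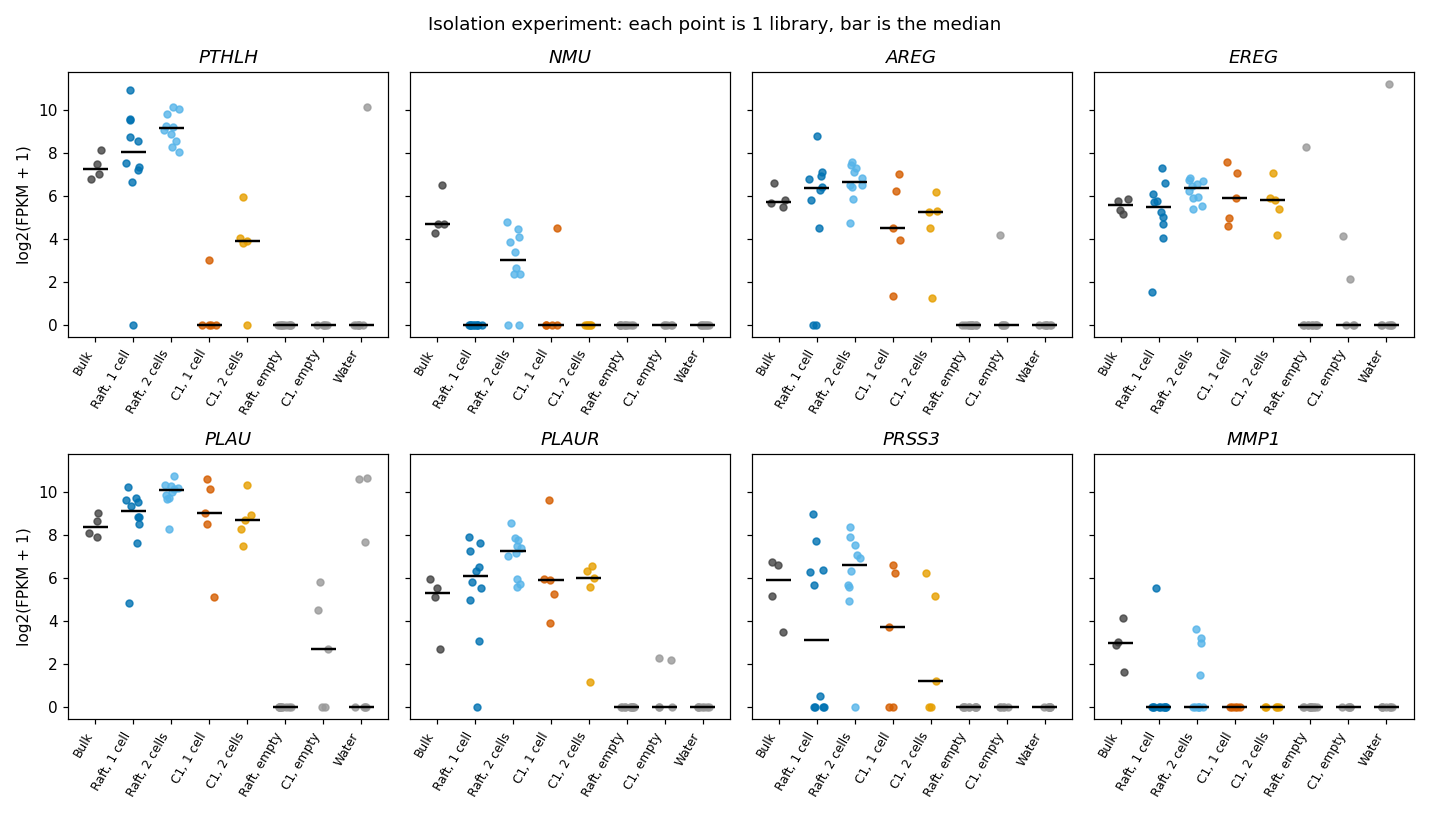
Level of each of the 8 genes as log2(FPKM + 1) (y axis) in bulk, raft and C1 libraries, empty captures and water (x axis); each point is 1 library and the bar is the group median. PTHLH sits near bulk in rafts and at or near 0 in 1-cell C1 captures, and NMU is at 0 in all 10 1-cell rafts.

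The blanks held isolated high values. In water, PLAU stood at 1656 and 1601 FPKM in replicates 1 and 2 and at 207 FPKM in replicate 5, PTHLH at 1148 FPKM in replicate 1 and EREG at 2392 FPKM in replicate 7. Among 10 empty rafts EREG was at 312 FPKM in replicate 2, and the 8 genes were otherwise listed at 0. Among 5 empty C1 captures PLAU was at 56.04, 5.58 and 22.0 FPKM, EREG at 16.9 and 3.47, PLAUR at 3.62 and 3.97 and AREG at 17.3. Genes detected numbered 81 to 2097 in water, 9 to 1301 in empty rafts and 865 to 7953 in empty C1 captures. PRSS3, MMP1 and NMU were listed at 0 in all 22 blanks.

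Differences between capture groups are given without a test, because each library is 1 or 2 cells of a culture that the labels do not name. Method and library set cannot be told apart. For 1-cell rafts minus 1-cell C1 captures, PTHLH differed by 7.01 on the log2(FPKM + 1) scale, with means of 7.62 (n = 10) and 0.6 (n = 5). It was the only one of the 8 past a log2 difference of 2, a size passed by 28.8% of 10176 genes detected in at least 5 of these libraries, a filter that NMU and MMP1 did not pass. AREG, PRSS3, PLAU, PLAUR and EREG differed by 0.65, 0.24, 0.03, -0.63 and -0.83, and the medians were 0.14 over the 8 and -0.27 over all those genes. Against bulk, 1-cell rafts differed by -2.39 for MMP1 and -1.95 for PRSS3 and by -0.63 to 0.69 for PTHLH, AREG, EREG, PLAU and PLAUR, while NMU was listed at 0 in these rafts. Of 9648 genes detected in at least 5 of these libraries, 11.4% passed a difference of 2. MMP1, detected in 1 of 10 rafts and all 4 bulk libraries, met that filter only through bulk. C1 captures with 1 cell differed from bulk by -6.77 for PTHLH, -4.14 for NMU and -2.19 for PRSS3, where 28.5% of genes passed, and MMP1 was listed at 0. PTHLH and NMU, each detected in 1 of 5 C1 captures and all 4 bulk libraries, also met the filter only through bulk. A gene detected only in the 4 bulk libraries fails the filter, so both shares leave such genes out. EREG, PLAU and PLAUR stood 0.49, 0.27 and 1.32 above bulk in the C1 captures, and AREG differed by -1.28.

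On the log2(FPKM + 1) scale the means of all 8 genes were higher on rafts with 2 cells than with 1, while the mean FPKM of MMP1 was 2.87 with 2 cells and 4.55 with 1. NMU was listed at 0 in the 1-cell rafts and had a mean of 2.8 on the log2(FPKM + 1) scale with 2 cells. The difference was 2.49 for PRSS3, 1.54 for PLAUR, 1.52 for PTHLH, 1.37 for AREG, 1.2 for PLAU, 1.03 for EREG and 0.58 for MMP1, and the 2 groups overlapped for each of the 8. Their median was 1.44 beside 0.4 over the 10660 genes, of which 2.9% differed by 2 or more. In C1 captures the same difference was 2.95 for PTHLH and lay between -1.01 (PLAUR) and 0.06 (PLAU) for AREG, EREG, PRSS3, PLAU and PLAUR, with a median of -0.24 beside 0.14 over all genes, of which 5.57% differed by 2 or more.

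**Figure D2:**
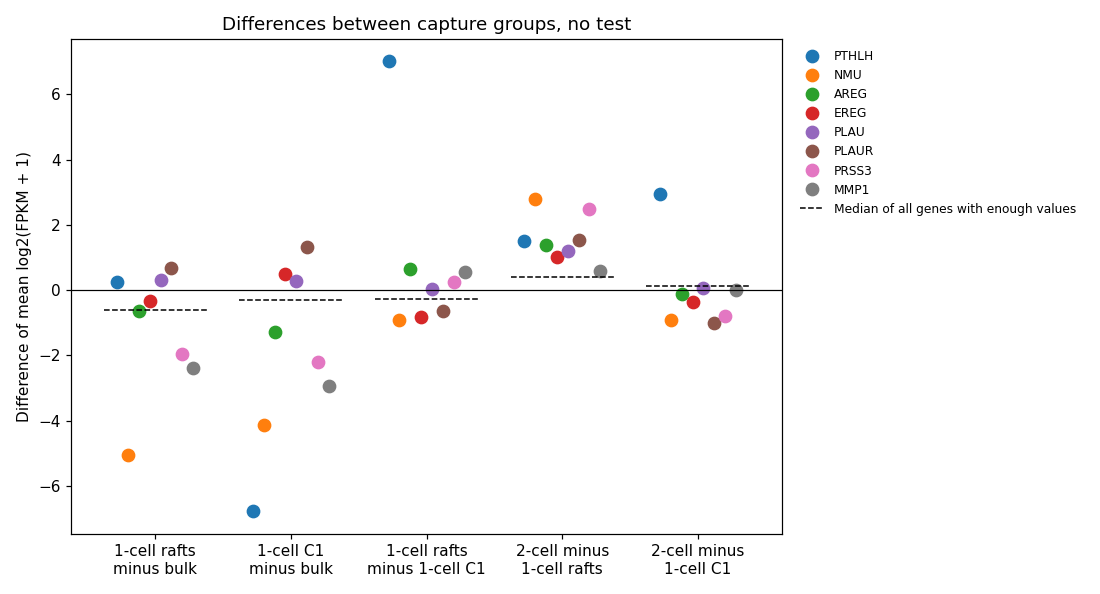
Difference of mean log2(FPKM + 1) (y axis) between capture groups (x axis) for each of the 8 genes (coloured points), with the median of all genes detected in at least 5 libraries as a dashed line. PTHLH lies at 7.01 for rafts minus C1 captures and at -6.77 for C1 captures minus bulk, and all 8 genes lie above 0 for 2-cell minus 1-cell rafts.

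Across the 30 captures with cells the genes varied together only in part. Spearman rho was taken within the 10 cell-containing rafts of each of the 2 raft library sets and within the 10 C1 captures, and averaged; it is a description, since the libraries share depth and set. PLAU and PLAUR had a mean rho of 0.596 (0.345, 0.867 and 0.576 in the 3 sets). EREG followed PLAU at 0.543 and AREG at 0.406, and PTHLH followed AREG at 0.476. EREG and PTHLH had a mean rho of 0.027. Over 8035 genes that reached 1 FPKM in 15 or more captures, the gene whose pattern was most like that of PLAU was PHC2 at 0.795, then PDLIM7 at 0.773 and BZW1 at 0.721. For PTHLH it was PTPN11 at 0.779 (0.446 in the C1 captures), then MRPS27 at 0.714 and MYL12A at 0.665. For PRSS3 it was ODC1 at 0.735, for PLAUR MOCS3 at 0.709, for EREG NUP43 at 0.702 and for AREG CTNNAL1 at 0.682. Next in order came COQ4 (0.714) and SNORD58B (0.711) for PRSS3, ANO1 (0.674) and EBNA1BP2 (0.657) for PLAUR, CFL1 (0.657) and NT5E (0.648) for EREG, and TMEM14B (0.673) and EDEM3 (0.657) for AREG. NMU and MMP1, detected in 9 and 5 of the 30, were not ranked.

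In the gemcitabine experiment PRSS3 was the only 1 of the 8 called between proliferation classes averaged over arms, where 12.1% of all genes tested were called. Of 32 proliferative rafts 19 had it, and of 32 nonproliferative rafts 6. Untreated proliferative rafts had it at 276, 85.5 and 1257 FPKM in replicates 3, 4 and 8 and at 0 in the other 5, and all 8 untreated nonproliferative rafts were at 0. At 2 nM gemcitabine 5 proliferative rafts had 226 to 667 FPKM, and 1 nonproliferative raft had 12.5 FPKM with the other 7 at 0. At 5 nM 5 proliferative rafts had 42.3 to 1504 FPKM, and 1 nonproliferative raft had 2.58 FPKM. In these 3 arms the classes overlapped at 0, where the remaining proliferative rafts stood, and only the detected proliferative values lay above the nonproliferative ones. How many of all genes show such a pattern was not counted. In the saline arm the detected values overlapped as well: 6 proliferative rafts had 33.7 to 715 FPKM, and 4 nonproliferative rafts had 118, 49.5, 101 and 368 FPKM with the other 4 at 0.

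Classes were tested with limma, a linear model with a spread shared across genes, on log2(FPKM + 1) in the 52 of 64 rafts with at least 1000 genes detected; the p-values measure only how rafts vary, and the labels name no separate cultures. Averaged over the 4 arms, PRSS3 was higher in proliferative rafts by 4.53 (SE 0.86, 95% interval 2.82 to 6.24, adjusted p = 0.00205), with arm-averaged means of 5.72 and 1.19. Of the 11560 genes tested 12.1% were called in either direction and 11.4% as higher in proliferative rafts, with a median difference of 0.58, so 1 of 8 is close to the background. All 8 genes passed the filter of detection in at least 8 of the 52 rafts. PRSS3 (19 proliferative and 6 nonproliferative), NMU (7 and 2) and MMP1 (3 and 6) did not reach 8 in each class. Without the filter PRSS3 differed by 4.53 with an adjusted p of 0.00334 (limma). The median difference of the 8 was 1.2, and 7 of 8 lay above 0. PRSS3 stayed past the threshold under each alternative that could be fitted, between 2.8 and 6.23 with adjusted p from 0.00114 to 0.0195, and between 4.2 and 4.84 when each raft was left out.

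Fewer nonproliferative libraries resembled bulk. Only 12 of 32 nonproliferative rafts had a rho with bulk of at least 0.25, against 22 of 32 proliferative rafts, a limit chosen after the data were seen. Of those 34 libraries, 19 of the 22 proliferative and 6 of the 12 nonproliferative ones had PRSS3, and the averaged difference was 4.62. The limit kept every raft with PRSS3 and took out only rafts at 0. The PRSS3 values under it are therefore descriptions with no test. Outside the saline arm the counts were 13 of 15 and 2 of 8. In the saline arm they were 6 of 7 and 4 of 4, and the difference there was -0.42. In the 52 rafts the within-arm differences were 4.97 untreated, 2.56 in saline, 5.46 at 2 nM and 5.15 at 5 nM. The limma interaction of class and arm was not called for PRSS3 in those 52. Of 6 ductal markers tested 2 rose with the proliferative class, KRT7 by 3.91 and KRT8 by 3.68 (limma adjusted p = 0.00708 and 0.0212), and all 6 lay above 0; VIM, 1 of 2 tested markers of other cell types, rose by 3.37 (adjusted p = 0.0201). The part of these in the PRSS3 difference was not tested. In a raft with an unknown number of cells, fewer cells and less RNA per cell cannot be told apart.

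Reads of PRSS3 could in part belong to other genes. Of 1095 windows of 50 bases in its longest protein-coding transcript in GENCODE release 29, 14 also occur in a PRSS2 transcript and 0 in a PRSS1 transcript. PRSS1, the cationic trypsinogen, was listed at 0 in all proliferative rafts and detected in 1 nonproliferative raft at 27.9 FPKM, and adding its row to PRSS3 gave a class difference of 4.36 (adjusted p = 0.00205, limma), while PRSS2 was not analysed here. Exons of PRSS3, PLAU, MMP1 and PTHLH overlap a gene on the opposite strand in that release (UBE2R2-AS1, C10orf55, WTAPP1 and AC008011.2), and the strand use of the authors' counting is not given in the sources used here.

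**Figure D3:**
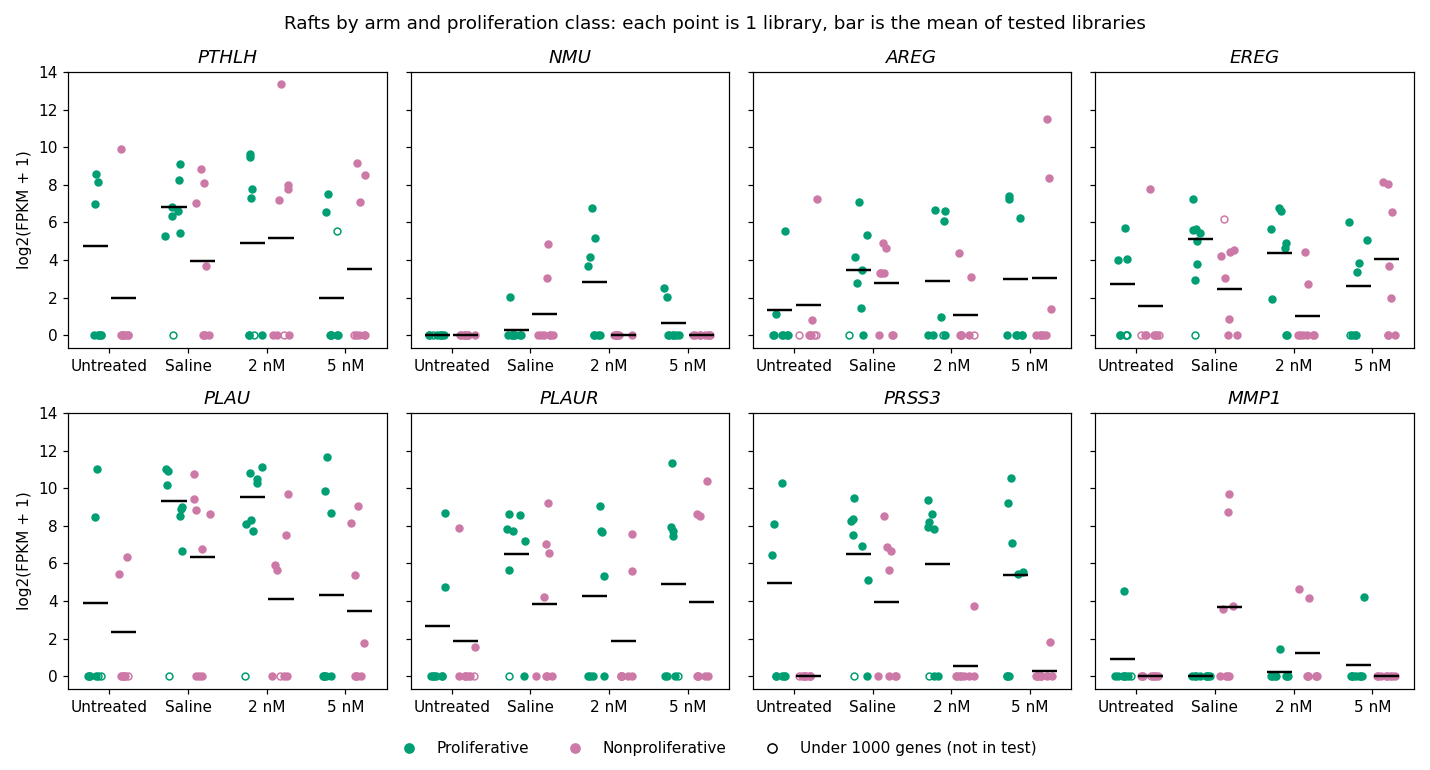
Level of each of the 8 genes as log2(FPKM + 1) (y axis) by arm (x axis) in proliferative (green) and nonproliferative (pink) rafts; filled points are the 52 rafts in the test, open points have under 1000 genes detected, and the bar is the mean of the filled points. For PRSS3 the nonproliferative rafts outside the saline arm sit at 0 apart from 12.5 FPKM at 2 nM and 2.58 FPKM at 5 nM.

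MMP1 went the other way in the saline arm. It was listed at 0 in all 8 saline proliferative rafts and stood at 432, 10.8, 12.4 and 841 FPKM in nonproliferative replicates 5 to 8, with 0 in replicates 1 to 4. Those 4 rafts are the saline nonproliferative libraries with a rho above 0.25 (0.608 to 0.747). Elsewhere MMP1 was detected in 1 untreated, 1 2 nM and 1 5 nM proliferative raft, at 22.1, 1.72 and 17.4 FPKM, and in 2 nonproliferative rafts at 2 nM, at 16.97 and 24.3 FPKM. The saline difference was -3.68 in the 52 rafts and -6.45 in the 34 libraries with a rho of at least 0.25. MMP1, detected in 9 of the 52 rafts, met the filter of 8 only through these 4, and the rho limit keeps exactly these 4 of the saline nonproliferative rafts, so both values are descriptions with no test. Averaged over arms MMP1 differed by -0.81.

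NMU was detected in 9 rafts of the arms, 4 of them proliferative at 2 nM gemcitabine. There it stood at 108, 17.2, 35.3 and 12.1 FPKM in replicates 2, 3, 5 and 6 and at 0 in the other 4, while all 8 nonproliferative rafts of that arm were at 0. Elsewhere it was detected in 1 saline and 2 5 nM proliferative rafts, at 3.05, 4.75 and 3.12 FPKM, and in 2 saline nonproliferative rafts, at 27.8 and 7.35 FPKM. The 2 nM difference was 2.84. NMU met the filter of 8 rafts only through that group, so its difference is a description with no test.

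**Figure D4:**
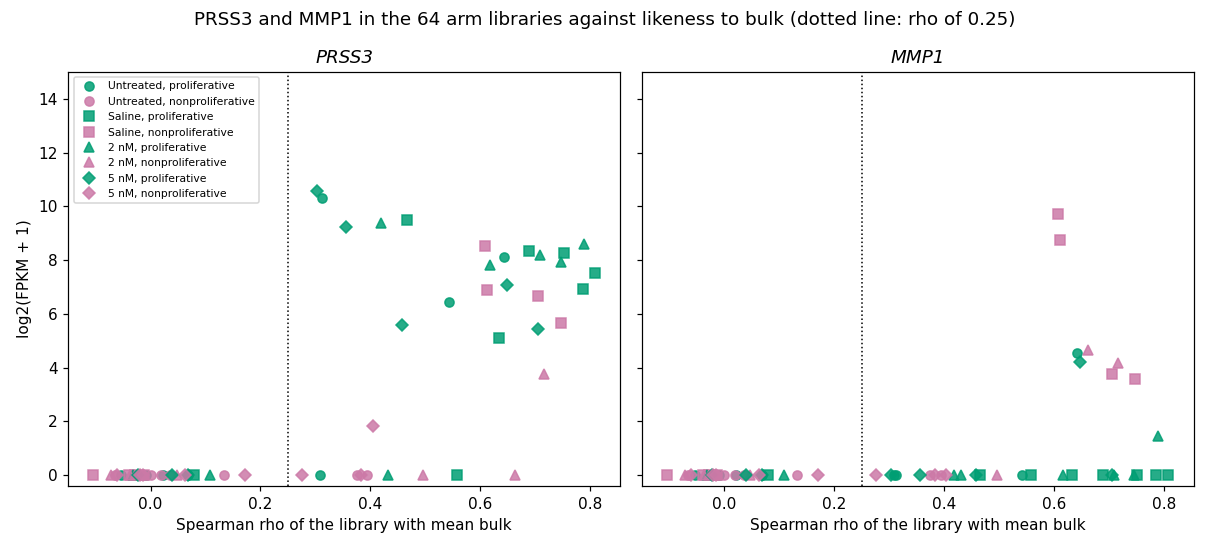
PRSS3 (left) and MMP1 (right) as log2(FPKM + 1) (y axis) against each library's Spearman rho with mean bulk (x axis) in the 64 arm rafts, coloured by class and marked by arm, with a dotted line at 0.25. Every raft left of the line is at 0 for both genes, and right of it 19 of the 22 proliferative and 6 of the 12 nonproliferative rafts have PRSS3.

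The growth factors and the urokinase pair did not pass in any class comparison. Among proliferative rafts 19 of 32 had PLAU, among nonproliferative rafts 15 of 32, with highest values of 3268 and 1741 FPKM. Its averaged difference was 2.69 (SE 1.07, 95% interval 0.57 to 4.81, adjusted p = 0.0749, limma), and it passed only without untreated proliferative replicate 5 (2.93, adjusted p = 0.0451). PLAUR differed by 1.7 (95% interval -0.21 to 3.61) and EREG by 1.44 (-0.08 to 2.95). PTHLH differed by 0.95 (-1.03 to 2.93) and AREG by 0.55 (-0.97 to 2.08). NMU differed by 0.66, a description with no test. In the 34 libraries with a rho of at least 0.25 PTHLH turned to -2.02 and AREG to -0.27, and PLAU, PLAUR and EREG shrank to 0.49, 0.23 and 0.04. There PTHLH appeared in 15 of the 22 proliferative and 11 of the 12 nonproliferative rafts. The highest arm values of PTHLH and AREG, 10349 and 2881 FPKM, came from 2 nM and 5 nM nonproliferative replicate 6, libraries with 1137 and 1779 genes detected and a rho of 0.048 and 0.063.

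**Figure D5:**
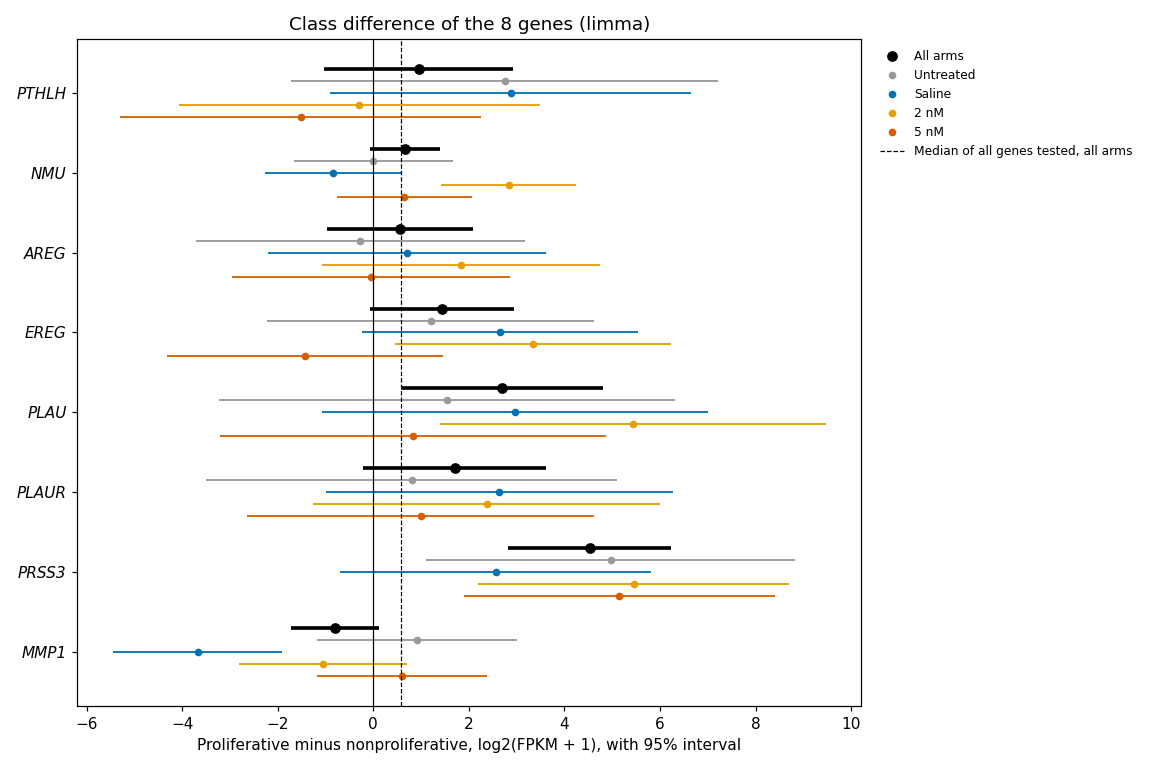
Difference between proliferative and nonproliferative rafts on the log2(FPKM + 1) scale (x axis) for each of the 8 genes (y axis), averaged over arms (black) and within each arm (coloured), with 95% intervals from limma. PRSS3 averages 4.53, and the dashed line marks the median of 0.58 over all genes tested.

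Within single arms none of the 8 was called by limma. The members at an unadjusted p under 0.05 numbered 1 untreated, 1 in saline, 4 at 2 nM and 1 at 5 nM, beside 808, 1272, 1348 and 1030 of the 11560 genes. The 1 in saline was MMP1 and NMU was among the 4 at 2 nM, and neither is a test. Over all genes 0% were called untreated, 0% in saline, 0.0173% at 2 nM and 0% at 5 nM. The interaction called 0% of genes. PLAU differed by 1.54, 2.96, 5.43 and 0.83 in the 4 arms in that order.

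Between treatments, averaged over both classes, limma called none of the 8. Each treatment was 1 arm, and the labels name no separate cultures. The p-values here measure only how rafts vary and are no test of treatment. For 5 nM gemcitabine minus saline 4.64% of genes were called, mostly lower at 5 nM, and all 8 lay below 0; PLAU differed by -3.93 (SE 1.44, adjusted p = 0.079), PTHLH by -2.63, PRSS3 by -2.41 and MMP1 by -1.54, and 3 had an unadjusted p under 0.05. Over all genes the median was -0.76 and 2997 of 11560 had such a p. The 536 genes called there became 108 without saline nonproliferative replicate 6, 1234 without 5 nM proliferative replicate 2 and 9 (5 higher, 4 lower) once genes detected entered the fit. For 2 nM minus saline 0% of genes were called and 0 of the 8 had an unadjusted p under 0.05, beside 768 of all genes. For saline minus untreated 0.381% of genes were called, and all 8 lay above 0, from 0.71 for NMU to 4.7 for PLAU (SE 1.58, adjusted p = 0.0685), with 4 at an unadjusted p under 0.05. Over all genes the median was 1.09 and 3344 of 11560 had such a p. The 44 genes called there became 0 without untreated proliferative replicate 1, 1483 without replicate 3 of that group and 3021 of 11643 with all libraries. PLAUR, at 2.9 there, turned to -0.47 once genes detected entered the fit. MMP1, which met the filter only through saline rafts, was among the members with such a p for 5 nM minus saline and for saline minus untreated, which is no test. These 3 comparisons share the saline rafts, and treatment and library set cannot be told apart in them.

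Other genes of the same pathways were counted for the class comparison averaged over arms. The share of all genes called higher, 11.4%, is the background of these counts. Of 14 tested EGFR ligands, receptors, sheddases and feedback genes, 2 rose with the proliferative class and 0 fell. DUSP6, a phosphatase that acts on the kinase ERK, rose by 2.3 (adjusted p = 0.0239, limma) and the ligand NRG1 by 1.31. EGFR differed by -0.4 and ADAM17 by 0.2, neither called. Of 6 tested trypsin-like proteases and their receptors, 1 rose, PRSS22, a tryptase, by 1.4, and F2RL1 differed by 0.66. NRG1 and PRSS22 had arm-averaged means of only 0.23 and 0.06 in nonproliferative rafts. They met the filter mainly through proliferative rafts, so their differences are descriptions with no test. None of 3 tested genes of the plasminogen system (PLAT 0.97), of 3 metalloproteinase genes (TIMP1 0.31) or of 1 gene of the hormone axis was called. The list medians were 0.4, 0.97, 0.97, 0.31 and 0.97 in the order EGFR, trypsins, plasminogen, metalloproteinases and hormones, beside 0.58 over all genes.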

How the data were processed

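The authors deposited 1 table with 120 libraries and 30504 rows in FPKM, that is, fragments per transcript length and sequencing depth. Per the submitters' processing notes it was made with RSEM on hg19; versions, annotation and filters are not given in the sources used here. FPKM holds no counts, so counting intervals cannot be given, and a listed 0 may be a failed estimate. Groups came from the labels. Library sets, those of the rafts and bulk included, were read from the naming of the library titles, and no label states a batch. Detection meant at least 1 FPKM. Members and gene lists were chosen with earlier results of these data known; the named genes were the 8 members, fixed partners such as EGFR and PTH1R, up to 4 called members per list and the 3 most alike genes. limma 3.58.1 (R 4.3.3, trend, two-sided, Benjamini-Hochberg over 11560 genes, threshold 0.05) was fitted on log2(FPKM + 1) to 8 groups of 5 or 7 rafts; isolation groups were not tested. A fold on this scale is understated for low genes. The fit was tested on simulated data. Tables used Python 3.11.15, pandas 2.3.3, numpy 2.4.6 and matplotlib 3.10.9. Alternatives covered pseudocounts of 0.1 and 10, filters, normalization, a covariate, raft sets and left-out libraries.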

Additional observations from a re-analysis of the deposited data

Results flagged for a closer look

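In 26 of 100 groups of 4 to 10 libraries with any spread, 1 library of a gene lay far from the rest, judged by its gap to the nearest value against the group's range on the log2(FPKM + 1) scale. Chance flags about 1 group in 20, and a lone nonzero value among zeros always meets the rule. Blanks gave PTHLH at 1148.08 FPKM in water replicate 1, EREG at 2392.31 in water replicate 7 and at 312.35 in empty raft replicate 2, and AREG at 17.3 in empty C1 replicate 4.

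Among captures with cells, 1-cell rafts gave PTHLH at 0 in replicate 6, MMP1 at 45.51 in replicate 5 and PLAU at 27.75 in replicate 10. Raft replicate 8 with 2 cells had PRSS3 at 0 and PLAU at 317.16. C1 captures gave PTHLH at 7.1 in 1-cell replicate 3, NMU at 21.59 in 1-cell replicate 2 and PLAUR at 1.26 in 2-cell replicate 2.

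In the untreated arm, nonproliferative replicate 4 stood apart for PTHLH at 969.22, AREG at 153.09 and PLAUR at 231.42, and replicate 7 for EREG at 217.75. Untreated proliferative replicate 3 had AREG at 45.41 and MMP1 at 22.13. In saline proliferative rafts PTHLH and PLAU were at 0 in replicate 5, and NMU was at 3.05 in replicate 8. At 2 nM gemcitabine MMP1 was at 1.72 in proliferative replicate 6, PLAU at 0 in proliferative replicate 8 and PRSS3 at 12.51 in nonproliferative replicate 2. At 5 nM MMP1 was at 17.43 in proliferative replicate 4 and PRSS3 at 2.58 in nonproliferative replicate 8.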

How the results depend on the processing

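Of 2564 values under alternatives for 113 results, 2513 kept their direction and side of the threshold or moved by less than the spread between libraries. The cause of the changes below was not tested. Turned in sign: averaged over arms, AREG to -0.30 with genes detected as a covariate and to -0.27 at a rho of at least 0.25, and PTHLH to -2.02 at that rho; PLAU untreated to -1.03 and PRSS3 in saline to -0.42 at that rho; PLAU for 2 nM minus saline to 0.53 with at least 3000 genes and to 0.25 with the covariate; PLAUR for saline minus untreated to -0.47 with the covariate. Leaving out each raft gave PLAU from -0.24 to 2.53 untreated (lowest without proliferative replicate 3) and from -0.40 to 1.76 at 5 nM (below 0 without proliferative replicate 2 or 4). Of the 8 genes, 1 was called in saline and 1 by the interaction at a rho of at least 0.25 (MMP1 both times, which is no test, since that limit keeps the saline nonproliferative rafts that hold it). For 5 nM minus saline 1 was called with at least 3000 genes (PRSS3), where 503 of 10627 genes were called. At that rho 1 was called (MMP1, again no test). For saline minus untreated 1 was called with a pseudocount of 0.1 (PLAU) and 3 with all libraries (PRSS3, PLAU and PLAUR), where 3021 of 11643 genes were called. Leaving out each raft gave 1 to 2 called averaged over arms, 0 to 1 at 2 nM (NMU without proliferative replicate 1 or 7), 0 to 2 for 5 nM minus saline (PLAU, MMP1 or both without saline nonproliferative replicate 1, 3 or 4 or 5 nM proliferative replicate 2 or 4) and 0 to 1 for saline minus untreated (PLAU without untreated proliferative replicate 3 or 4 or saline nonproliferative replicate 3 or 4). The calls of MMP1 and NMU with a raft left out are no test either, since each met the filter only through 1 group. The rho limit and the PRSS3 plus PRSS1 sum were chosen after seeing the data.

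The 1400 genes called for class averaged over arms became 906 with a pseudocount of 10, 756 without the low-value filter, 641 with all libraries and 660 with quantile normalization. They became 225 with the covariate, 94 at a rho of at least 0.25 and 780 without untreated proliferative replicate 3. The count rose to 1587 with a pseudocount of 0.1, 2027 without untreated proliferative replicate 5 and 1821 without saline nonproliferative replicate 7. The median over all genes moved from 0.58 to 1.13 with a pseudocount of 0.1 and to 0.17 with one of 10. The share called higher was 1313 of 1400, and 533 of 660 with quantile normalization. With at least 3000 genes no untreated nonproliferative raft was left, so the averaged value could not be given. Sums with AREGB or over repeated rows were not run, since each gene had 1 row. No paired analysis was possible because the labels give no replicate numbers that pair rafts between the groups compared.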
